A study of Mus musculus with 24 samples.

Results

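Dbp, Tef, Hlf, Bhlhe40, Bhlhe41 and Ciart are transcription regulators that lie at the output of the mammalian circadian clock, and they were picked by name and matched to the table through their Ensembl identifiers. All 6 were found among 16604 genes. DBP, TEF and HLF form the PAR bZIP family (proline and acidic amino acid-rich basic leucine zipper), which binds D-box elements and carries clock rhythms into metabolic and detoxification genes, and NFIL3 represses from the same elements. BHLHE40 and BHLHE41, also called DEC1 and DEC2, are basic helix-loop-helix repressors that bind the E-box, the element through which the CLOCK:BMAL1 dimer activates its targets. CIART, also called CHRONO, represses CLOCK:BMAL1 as well. In liver the transcripts of Dbp, Tef, Hlf, Bhlhe41 and Ciart cycle over the day, and Dbp and Ciart are textbook direct targets of CLOCK:BMAL1.

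RNA sequencing covered 24 libraries of EMS404, an SV40-immortalized hepatic stellate cell line from C57Bl6 mouse liver that expresses human TLR4. Hepatic stellate cells are the pericytes of the liver that become matrix-producing myofibroblasts in fibrosis, and TGFb (transforming growth factor beta) drives that change. The 8 groups of 3 libraries were SB431542 with TGFb, SB431542, SR9011 with TGFb, SR9011, CLK8 with TGFb, CLK8, TGFb, and DMSO vehicle, which the treatment label calls untreated. SB431542 inhibits the type I TGFb receptor kinase, SR9011 is described in the series as an agonist of REV-ERBalpha, and CLK8 as a disruptor of the CLOCK:BMAL1 dimer. Cells had a compound for 24 h and then the compound with 10 ng/mL TGFb for another 24 h. Compound doses, the handling of the groups without TGFb over the last 24 h, and any synchronization of the cells are not stated in the labels. Whether the groups with and without TGFb were harvested at the same time is therefore not known, and any such difference cannot be told apart from TGFb here. Each group was sampled once, so the values are levels and not rhythms. The labels call the samples biological triplicates without saying what was repeated.

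Of the promoter windows that were searched for clock elements, 5 are shown because the members differ in how many E-boxes they hold. The windows are from RefSeq on GRCm38.p6 and run from 250 bases before to 50 bases after a start site. They covered 5 of the 6 members in 6 windows, since Tef has 2 start sites in the table and Bhlhe40 is not in it. Each line runs 5′ to 3′ on the gene's strand, and capitals mark the E-box CACGTG, which reads the same on both strands.
Ciart (chr3:95882179-95882478, minus strand): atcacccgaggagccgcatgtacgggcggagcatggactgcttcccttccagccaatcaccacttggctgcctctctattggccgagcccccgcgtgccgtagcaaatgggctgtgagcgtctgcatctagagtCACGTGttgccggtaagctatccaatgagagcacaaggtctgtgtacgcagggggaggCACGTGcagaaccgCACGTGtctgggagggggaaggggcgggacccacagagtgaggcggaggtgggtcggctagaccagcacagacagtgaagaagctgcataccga
Bhlhe41 (chr6:145865371-145865670, minus strand): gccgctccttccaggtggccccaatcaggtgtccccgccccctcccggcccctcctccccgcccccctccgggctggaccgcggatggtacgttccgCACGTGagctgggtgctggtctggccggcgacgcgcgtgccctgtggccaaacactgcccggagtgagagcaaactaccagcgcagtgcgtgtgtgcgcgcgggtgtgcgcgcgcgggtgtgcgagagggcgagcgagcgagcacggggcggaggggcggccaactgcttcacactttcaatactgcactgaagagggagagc
Tef, upstream start (chr15:81802423-81802722, plus strand): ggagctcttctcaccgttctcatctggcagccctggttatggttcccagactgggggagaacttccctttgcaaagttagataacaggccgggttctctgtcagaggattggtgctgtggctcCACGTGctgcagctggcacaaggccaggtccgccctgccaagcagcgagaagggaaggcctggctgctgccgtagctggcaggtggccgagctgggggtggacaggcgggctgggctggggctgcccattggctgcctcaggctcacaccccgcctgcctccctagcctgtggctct
Tef, downstream start (chr15:81811164-81811463, plus strand): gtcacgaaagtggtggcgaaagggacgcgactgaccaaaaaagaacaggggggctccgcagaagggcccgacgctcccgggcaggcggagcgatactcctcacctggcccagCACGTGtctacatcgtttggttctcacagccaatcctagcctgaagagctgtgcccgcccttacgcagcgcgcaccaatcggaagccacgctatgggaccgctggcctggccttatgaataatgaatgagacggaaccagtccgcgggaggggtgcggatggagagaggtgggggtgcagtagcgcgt
Dbp (chr7:45704997-45705296, plus strand): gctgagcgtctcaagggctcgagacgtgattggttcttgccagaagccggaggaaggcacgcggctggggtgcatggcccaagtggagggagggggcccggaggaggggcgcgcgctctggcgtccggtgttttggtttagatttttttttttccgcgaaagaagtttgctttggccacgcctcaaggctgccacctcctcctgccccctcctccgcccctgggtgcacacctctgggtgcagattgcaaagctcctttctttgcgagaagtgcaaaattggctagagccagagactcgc
The Ciart window held 3 E-boxes, at positions -116, -58 and -44 counted from the start site to the first base of the match. Bhlhe41 held 1, at -153, and each Tef window held 1, at -127 and -138. The windows of Dbp and of Hlf (chr11:90390868-90391167, minus strand) held 0, which says only that these letters are not in these windows. Of all 32851 promoters in the table, 7.15% held CACGTG. The variant CACGTT, the D-box TTATGNAA and AGGTCA, the core of the element that REV-ERB proteins bind, were searched on both strands as well. None of the 6 windows held any of the 3, which occur in 4.68%, 3.38% and 16.3% of all promoters.

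Levels are FPKM (fragments per kilobase of transcript, scaled to the mapped fragments of the library) as deposited, so they are per length and can be set side by side between genes. Read counts and depth are unknown, and FPKM summed to between 503920 and 610024 per library. Of the 15 stellate cell markers 14 were in the table and 9 averaged at least 1 FPKM, with Reln at 0 in every library. The 4 measured hepatocyte markers summed to at most 0.22 FPKM and the 4 endothelial markers to at most 0.47 FPKM in any library. The 3 measured leukocyte markers summed to between 1.05 and 3.15 FPKM, and the 4 cholangiocyte markers to between 2.51 and 11.4 FPKM. Marker levels moved with the groups. The stellate markers summed to 3752–3957 FPKM with SB431542 and TGFb, 3310–3482 with SB431542, 2736–2903 with SR9011 and TGFb, 1423–1643 with SR9011, 4922–5604 with CLK8 and TGFb, 3241–3333 with CLK8, 5444–6112 with TGFb and 4044–4199 FPKM with vehicle. The 4 mesothelial markers, all above 1 FPKM on average, summed to 320–383, 398–419, 62.7–77.0, 61.5–91.9, 58.8–72.0, 83.6–103, 150–160 and 305–327 FPKM in the groups in the same order. Upk3b carried most of that sum in all groups except SR9011 with TGFb and CLK8 with TGFb. It averaged 87.7 FPKM with TGFb and 252 FPKM with vehicle. Msln went the other way with SR9011 (16.8 FPKM, against 5.65 FPKM with vehicle), and Lrrn4 was 36.3 FPKM with TGFb and 34.5 FPKM with vehicle. Among the stellate markers Col1a1, Col1a2 and Vim were highest with vehicle, at 1574, 1335 and 743 FPKM. Col1a1 and Col1a2 were higher with TGFb (2421 and 1964 FPKM). Pdgfra and Hand2 went the other way (44.7 and 57.9 FPKM with TGFb, against 88.7 and 69.0 FPKM with vehicle). The part of these shifts in the results below was not tested, and in bulk RNA fewer cells of a type and less RNA per cell cannot be told apart. Pmepa1, a direct TGFb target, checked the treatment: it averaged 71.6 FPKM with TGFb and 5.24 FPKM with vehicle (log2 fold change 3.54), and the difference was 0.82 (3.92 and 1.78 FPKM) when SB431542 was present.

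Tests used limma on log2(FPKM + 1) across 11297 genes, which include all 6 members, with p-values adjusted by Benjamini-Hochberg over those genes and a threshold of 0.05. A log2 fold change is on that scale, which understates the change of low genes. Bhlhe40 and Tef were the most abundant members, with medians of 29.1 and 27.9 FPKM over the 24 libraries. Ciart and Dbp followed at 8.09 and 7.67 FPKM, Hlf at 2.33 FPKM and Bhlhe41 at 1.01 FPKM. Bhlhe41 reached 1 FPKM in 12 of the 24 libraries and Hlf in 21. The ratio between the highest and the lowest group mean was 6.76 for Hlf, 4.99 for Dbp, 3.20 for Bhlhe41, 2.81 for Ciart, 2.32 for Bhlhe40 and 2.22 for Tef.

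**Figure D1:**
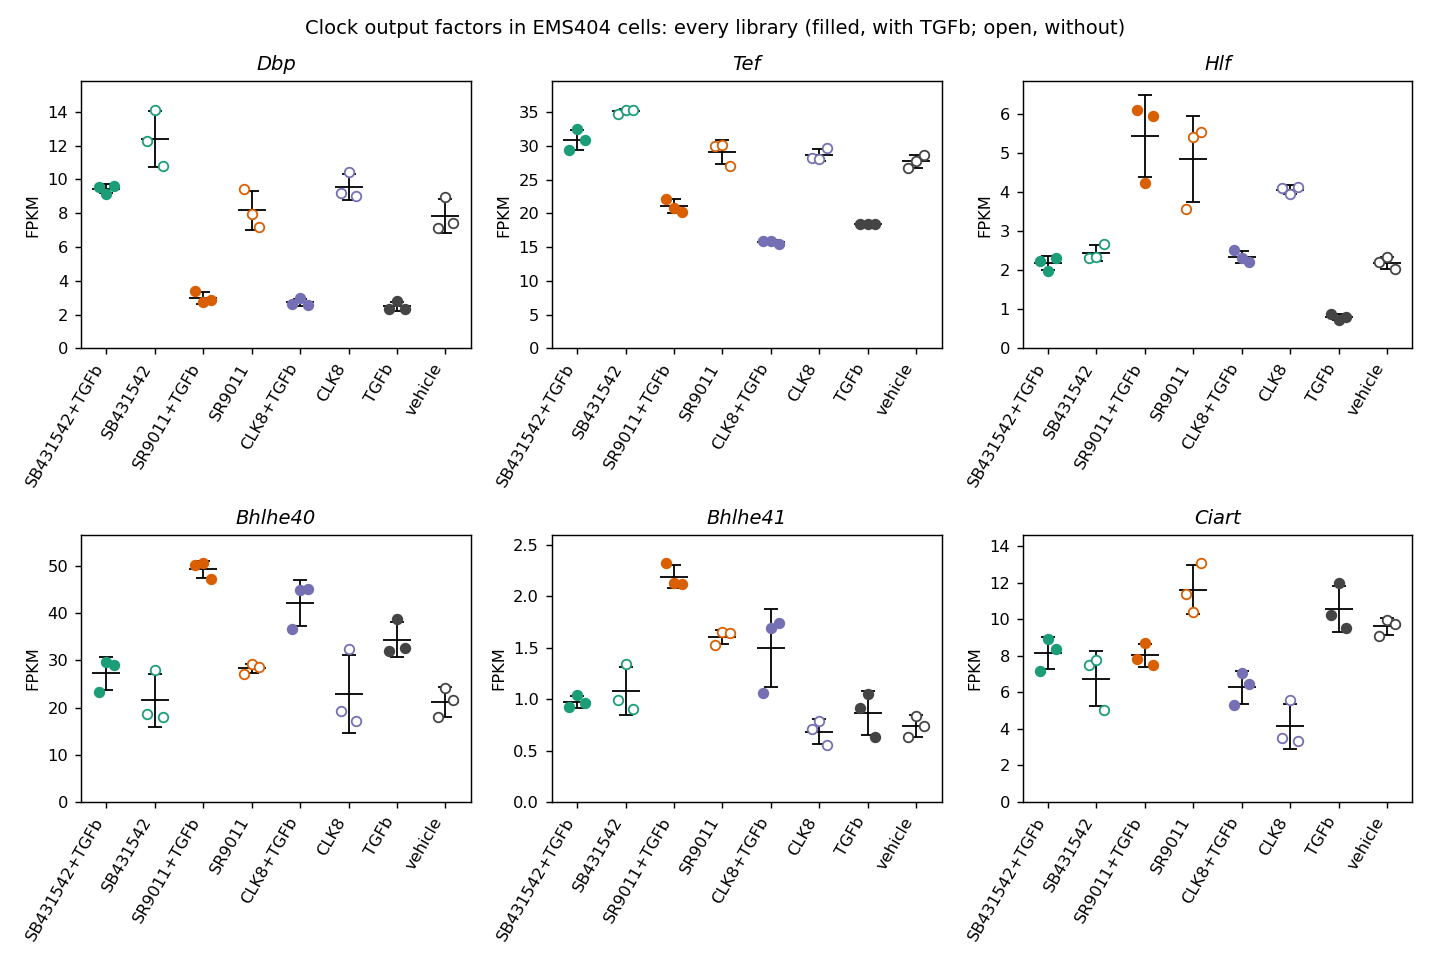
FPKM of each member in every library (points) with the group mean (bar), by group on the horizontal axis, each panel with its own linear vertical axis from 0. Dbp and Tef are low in the 3 groups with TGFb that lack SB431542, Hlf is lowest with TGFb alone, Bhlhe40 and Bhlhe41 are highest with SR9011 and TGFb, and Ciart is lowest with CLK8.

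Dbp (ENSMUSG00000059824, chr7:45705088-45710203, plus strand, protein coding), the founding PAR bZIP activator, fell with TGFb, and with SB431542 and TGFb it stood above every vehicle library. It measured 2.33, 2.78 and 2.34 FPKM with TGFb, against 7.13, 8.97 and 7.4 FPKM with vehicle. The 3 TGFb libraries all lay below the 3 vehicle libraries, and the means were 2.48 ± 0.257 and 7.83 ± 0.994 FPKM (SD, n = 3 each; log2 fold change -1.34, SE 0.10, limma adjusted p = 5.73e-11). With SB431542 and TGFb it measured 9.55, 9.13 and 9.62 FPKM, above all 3 libraries with TGFb alone (log2 fold change 1.58, SE 0.10, adjusted p = 2.19e-12). SB431542 without TGFb gave 12.27, 14.12 and 10.80 FPKM, all above vehicle (log2 fold change 0.60, adjusted p = 0.0001).

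SR9011 and CLK8 left the fall of Dbp in place. It measured 3.39, 2.72 and 2.85 FPKM with SR9011 and TGFb, against 9.43, 7.93 and 7.16 FPKM with SR9011 alone (log2 fold change -1.20, adjusted p = 6.36e-10). With CLK8 and TGFb it measured 2.62, 2.96 and 2.56 FPKM, against 9.18, 10.46 and 9.03 FPKM with CLK8 alone (log2 fold change -1.51, adjusted p = 6.14e-12). In each of these comparisons the 3 libraries with TGFb all lay below the other 3. Against TGFb alone the 95% interval of the log2 difference was -0.01 to 0.39 for SR9011 with TGFb and -0.11 to 0.29 for CLK8 with TGFb, and neither passed the threshold. The SR9011 difference passed without TGFb replicate 2 (0.25, adjusted p = 0.0482) and with only these groups in the fit (adjusted p = 0.0451).

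CLK8 alone stood 0.26 above vehicle for Dbp (adjusted p = 0.0332), and that call was lost with quantile normalization (0.16, adjusted p = 0.222), with no filter on low genes (adjusted p = 0.059), and without vehicle replicate 1, vehicle replicate 3 or CLK8 replicate 2 (adjusted p = 0.141, 0.112 and 0.143). SR9011 alone gave 0.05 (95% interval -0.15 to 0.25). In the order of group means SB431542 stood first and did not overlap the next group. CLK8, SB431542 with TGFb, SR9011 and vehicle followed with overlapping neighbours. SR9011 with TGFb, CLK8 with TGFb and TGFb came last, overlapping each other and separate from the rest. Exons of Dbp overlap exons of Sphk2 on the other strand, and the labels do not say whether the libraries keep strand. Sphk2 averaged 10.2 FPKM with TGFb and 11.8 FPKM with vehicle (log2 fold change -0.19, adjusted p = 0.0105). Its log2 fold change was 0.21 with CLK8 against vehicle (adjusted p = 0.00729), close to the 0.26 of Dbp. With SR9011 it was 0.50 against vehicle, and with SR9011 and TGFb 0.35 against TGFb, above the 0.05 and 0.19 of Dbp. The part of reads from Sphk2 in the Dbp values was not tested. Exons of Tef, Bhlhe40 and Bhlhe41 also overlap exons on the other strand, of Gm17597, 0610040F04Rik and Gm43909. These genes are not among the genes used here, so their part could not be tested.

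Tef (ENSMUSG00000022389, chr15:81802421-81826863, plus strand, protein coding), the PAR bZIP member with the highest level here, moved in the same direction as Dbp with TGFb and by less. It measured 18.39, 18.45 and 18.50 FPKM with TGFb, against 26.70, 27.79 and 28.61 FPKM with vehicle (log2 fold change -0.56, SE 0.05, adjusted p = 6.29e-10). With SB431542 and TGFb it measured 29.36, 32.44 and 30.82 FPKM, all above TGFb alone (log2 fold change 0.71, adjusted p = 7.32e-12). SB431542 alone gave 34.74, 35.29 and 35.37 FPKM, all above vehicle (log2 fold change 0.33, adjusted p = 1.71e-05) and the highest group mean of the 8.

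For Tef the differences with SR9011 and with CLK8 were opposite in direction once TGFb was present. CLK8 with TGFb measured 15.97, 15.93 and 15.48 FPKM, below all 3 TGFb libraries (log2 fold change -0.21, adjusted p = 0.000867). CLK8 alone measured 28.18, 28.10 and 29.64 FPKM, which overlapped vehicle (0.05, 95% interval -0.05 to 0.14). The drop with TGFb in CLK8-treated cells was -0.82 (adjusted p = 6.34e-13), against -0.56 with no compound. The difference between these drops, tested as an interaction, was -0.26 (adjusted p = 0.0151), and it missed the threshold when values were rescaled to TPM, in which each library has the same total (adjusted p = 0.069).

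SR9011 with TGFb measured 22.18, 20.80 and 20.14 FPKM for Tef, above all 3 TGFb libraries (log2 fold change 0.18, adjusted p = 0.00197). That call was lost with TPM (0.09, adjusted p = 0.148) and with quantile normalization (0.09, adjusted p = 0.11). SR9011 alone measured 29.96, 30.20 and 27.05 FPKM, which overlapped vehicle (0.07, 95% interval -0.03 to 0.16), and it passed the threshold without SR9011 replicate 3 (0.12, adjusted p = 0.0367). Against SR9011 alone the drop with TGFb was -0.45 (adjusted p = 4.19e-08). In the order of means SB431542 was highest and separate, and SB431542 with TGFb, SR9011, CLK8 and vehicle overlapped their neighbours. SR9011 with TGFb, TGFb and CLK8 with TGFb followed in that order without overlap.

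Hlf (ENSMUSG00000003949, chr11:90336536-90390895, minus strand, protein coding), the third PAR bZIP gene, shared the fall with TGFb but was the member most raised by SR9011 and by CLK8. It measured 0.88, 0.72 and 0.81 FPKM with TGFb, against 2.22, 2.33 and 2.02 FPKM with vehicle (log2 fold change -0.82, SE 0.11, adjusted p = 1.17e-06). All 3 compounds lifted it above TGFb alone. SB431542 with TGFb gave 2.24, 1.98 and 2.32 FPKM, and the log2 fold change over TGFb was 0.82 (adjusted p = 9.9e-07). CLK8 with TGFb gave 2.51, 2.32 and 2.2 FPKM, and the log2 fold change was 0.89 (adjusted p = 9.5e-07). SR9011 with TGFb gave 6.11, 4.23 and 5.96 FPKM, the highest group mean for Hlf, and the log2 fold change was 1.82 (adjusted p = 1.64e-12).

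Without TGFb, Hlf rose with SR9011 and with CLK8. SR9011 alone gave 3.57, 5.41 and 5.54 FPKM (log2 fold change over vehicle 0.85, adjusted p = 3.38e-07), and CLK8 alone gave 4.11, 3.94 and 4.14 FPKM (0.67, adjusted p = 3.21e-05). In both groups all 3 libraries lay above vehicle. SB431542 alone gave 2.32, 2.34 and 2.67 FPKM, which overlapped vehicle (0.11, 95% interval -0.12 to 0.34).

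The effect of TGFb on Hlf depended on the compound. In SR9011-treated cells it was 0.14 (95% interval -0.08 to 0.37), against -0.82 with no compound, an interaction of 0.97 (SE 0.16, adjusted p = 5.68e-05). Without SR9011 with TGFb replicate 2, the lowest of its group at 4.23 FPKM, the effect within SR9011-treated cells was 0.29 and passed the threshold (adjusted p = 0.0337). Without SR9011 replicate 1, the lowest of its group at 3.57 FPKM, the effect was -0.02. In SB431542-treated cells the effect was -0.11 (95% interval -0.34 to 0.11), an interaction of 0.71 (adjusted p = 0.0011). In CLK8-treated cells Hlf still fell, by 0.60 on the log2 scale (adjusted p = 7.61e-05), and the interaction of 0.22 did not pass (95% interval -0.10 to 0.54). The order of means began with SR9011 with TGFb, SR9011 and CLK8, which overlapped their neighbours. SB431542, CLK8 with TGFb, vehicle and SB431542 with TGFb overlapped in turn below them, and TGFb alone was lowest and separate.

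The summed FPKM of Dbp, Tef and Hlf averaged 21.7 ± 0.189 with TGFb and 37.7 ± 1.54 with vehicle (SD, n = 3 each), and the libraries did not overlap. SB431542 gave 42.5 ± 1.22 with TGFb and 49.97 ± 1.56 without it. SR9011 gave 29.5 ± 2.01 with TGFb and 42.1 ± 2.04 without it, and CLK8 gave 20.9 ± 0.531 with TGFb and 42.3 ± 0.701 without it. Tef made up 67.8% to 84.9% of the sum on average in the 8 groups. The share of Hlf was 18.4% with SR9011 and TGFb, 11.6% with SR9011, 11.2% with CLK8 and TGFb, and 9.62% with CLK8, against 3.70% with TGFb and 5.81% with vehicle. The totals with SB431542 and TGFb, with SR9011 and with CLK8 all lay between 42.1 and 42.5 FPKM, and Hlf made up 5.14%, 11.6% and 9.62% of them.

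Nfil3, the D-box repressor that competes with these activators, rose with TGFb. It averaged 29.1 ± 0.0833 FPKM with TGFb and 19.5 ± 0.136 FPKM with vehicle (log2 fold change 0.56, adjusted p = 5.49e-08). The ratio of the PAR bZIP sum to Nfil3, a description with no test, was 0.747 with TGFb and 1.94 with vehicle. It was 2.22 with SB431542 and TGFb against 2.91 with SB431542, 1.24 with SR9011 and TGFb against 1.87 with SR9011, and 0.627 with CLK8 and TGFb against 1.57 with CLK8. No library with TGFb alone or with CLK8 and TGFb exceeded 0.753.

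**Figure D2:**
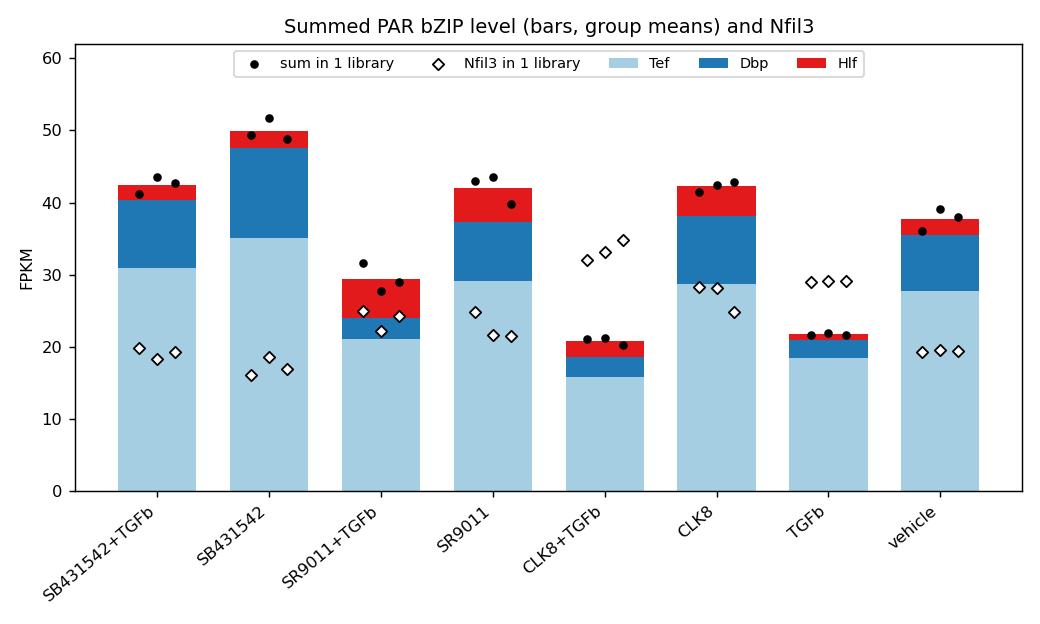
Summed FPKM of Tef, Dbp and Hlf as stacked group means (left axis, from 0), with the sum in each library as points and Nfil3 in each library as diamonds, by group. The mean sum is above that of vehicle with each compound alone and with SB431542 and TGFb, and Nfil3 exceeds the sum with TGFb alone and with CLK8 and TGFb.

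Genes reported as PAR bZIP targets were followed from a list of 9, of which 7 were in the table and 3 passed the filter: Pdxk (pyridoxal kinase), Por (cytochrome P450 oxidoreductase) and Alas1 (the first enzyme of heme synthesis). With TGFb all 3 were lower than with vehicle, by log2 fold changes of -0.32, -0.42 and -0.35, where 34.4% of all tested genes were called lower. With SB431542 and TGFb all 3 were higher than with TGFb (0.50, 0.62 and 0.50), where 38.3% of genes were called higher. SR9011 raised Pdxk and Alas1 over vehicle (0.61 and 0.93) while Por fell (-0.18), where 40.7% of genes were called higher and 28.3% lower. CLK8 raised Pdxk and Alas1 (0.23 and 0.56), and Por did not pass (0.04, adjusted p = 0.588). Of all genes 30.3% were called higher with CLK8. The 3 genes' median was -0.35 for TGFb against vehicle, where the median of all tested genes was -0.05.

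Bhlhe40 (ENSMUSG00000030103, chr6:108660629-108666925, plus strand, protein coding), the E-box repressor DEC1, rose with TGFb. It measured 31.93, 38.69 and 32.63 FPKM with TGFb, against 17.95, 24.23 and 21.52 FPKM with vehicle, and the groups did not overlap (log2 fold change 0.68, SE 0.18, adjusted p = 0.00415). With SR9011 and TGFb it measured 50.11, 50.54 and 47.26 FPKM, against 27.22, 29.15 and 28.60 FPKM with SR9011 (log2 fold change 0.78, adjusted p = 0.00183). With CLK8 and TGFb it measured 36.60, 44.89 and 45.18 FPKM, against 19.33, 32.36 and 17.06 FPKM with CLK8 (log2 fold change 0.90, adjusted p = 0.000392). TGFb thus went with a higher Bhlhe40 level with SR9011 or CLK8 as with no compound. In SB431542-treated cells it measured 23.30, 29.58 and 28.96 FPKM with TGFb, against 18.70, 28.05 and 17.98 FPKM without it, which overlapped (log2 difference 0.35, 95% interval -0.03 to 0.72). None of the 3 interactions passed for Bhlhe40, and their intervals were wide, such as -0.87 to 0.21 for SB431542.

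SR9011 with TGFb stood above TGFb alone for Bhlhe40 (log2 fold change 0.51, adjusted p = 0.0215). That call was lost with TPM (adjusted p = 0.0614), without TGFb replicate 1 or 3 (adjusted p = 0.0693 and 0.0607) and without SR9011 with TGFb replicate 2 (adjusted p = 0.0525). SR9011 alone lay above vehicle in all 3 libraries without passing the threshold (0.41, adjusted p = 0.055). SB431542 with TGFb was below TGFb in all 3 libraries and did not pass either (-0.33, adjusted p = 0.133). With only the compared groups in the fit these 2 differences had adjusted p = 0.00414 and 0.0136. With the replicate number as a block the limma adjusted p-values were 0.00906 and 0.0365. The SR9011 difference also passed without vehicle replicate 2 (0.50, adjusted p = 0.0369), with a filter of 5 FPKM (adjusted p = 0.0474) and with plain variance moderation (adjusted p = 0.0435). CLK8 with TGFb overlapped TGFb (0.29, adjusted p = 0.226), which became 0.0299 with only the compared groups. In the order of means SR9011 with TGFb was highest and separate, CLK8 with TGFb and TGFb overlapped, and SR9011, SB431542 with TGFb, CLK8, SB431542 and vehicle overlapped in turn below them.

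Bhlhe41 (ENSMUSG00000030256, chr6:145858243-145865558, minus strand, protein coding), the repressor DEC2, was the lowest member, and its TGFb difference was not detected. It measured 0.91, 1.05 and 0.63 FPKM with TGFb, against 0.63, 0.84 and 0.74 FPKM with vehicle, which overlapped (log2 difference 0.10, 95% interval -0.11 to 0.30). SR9011 alone raised it, with 1.53, 1.65 and 1.64 FPKM (log2 fold change over vehicle 0.59, adjusted p = 1.52e-05). SR9011 with TGFb gave 2.32, 2.13 and 2.12 FPKM, the highest of the 8 groups, with a log2 fold change over TGFb of 0.78 (adjusted p = 4.09e-07). SR9011 with TGFb also stood above SR9011 alone by 0.29 (adjusted p = 0.0196), which was lost with a pseudocount of 0.1 or without replicate 1 of either group (adjusted p = 0.0583, 0.0583 for SR9011 and 0.071 for SR9011 with TGFb). The interaction of SR9011 with TGFb did not pass for Bhlhe41 (0.19, 95% interval -0.10 to 0.48, limma adjusted p = 0.311).

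CLK8 with TGFb gave 1.06, 1.69 and 1.74 FPKM for Bhlhe41, against 0.71, 0.79 and 0.55 FPKM with CLK8 alone (log2 fold change 0.56, adjusted p = 5.05e-05). The CLK8 with TGFb libraries also lay above all 3 TGFb libraries (0.42, adjusted p = 0.00171). CLK8 alone overlapped vehicle (-0.05, 95% interval -0.25 to 0.16). The interaction of CLK8 with TGFb was 0.46 (adjusted p = 0.0434), and the call was lost in 12 of 20 alternative fits. Among these were the fits without replicate 2 or 3 of vehicle, 1 or 3 of TGFb, 1 or 3 of CLK8, and 2 or 3 of CLK8 with TGFb (adjusted p between 0.0666 and 0.133). SB431542 gave 0.92, 1.04 and 0.96 FPKM with TGFb and 0.99, 1.34 and 0.90 FPKM alone. The SB431542 group lay above vehicle without passing (0.25, adjusted p = 0.0836). In the order of means SR9011 with TGFb did not overlap the next group, and from SR9011 down to CLK8 each group overlapped its neighbour.

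Ciart (ENSMUSG00000038550, chr3:95878503-95882251, minus strand, protein coding), whose promoter window holds the 3 E-boxes shown above, was lowest with CLK8. It measured 3.51, 5.57 and 3.34 FPKM with CLK8, against 9.09, 9.97 and 9.74 FPKM with vehicle (log2 fold change -1.07, SE 0.14, adjusted p = 4.02e-06). With CLK8 and TGFb it measured 5.31, 7.05 and 6.44 FPKM, against 10.25, 11.97 and 9.52 FPKM with TGFb (log2 fold change -0.67, adjusted p = 0.000813). In both comparisons every library with CLK8 lay below every library without it. Ciart was the only member called lower with CLK8 alone. Hlf was called higher in the same cells, as was Dbp with a call lost in 5 of 15 fits. Tef and Bhlhe41, which also have an E-box in their windows, gave 0.05 and -0.05 and were not called. Whether the E-boxes bear on the CLK8 differences was not tested, and Bhlhe40 had no window.

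TGFb alone stood 0.12 above vehicle for Ciart on the log2 scale (95% interval -0.18 to 0.42), and the groups overlapped. In CLK8-treated cells TGFb went with a rise of 0.52 (adjusted p = 0.00492), although the ranges overlapped by the CLK8 library at 5.57 FPKM. The interaction of CLK8 with TGFb did not pass for Ciart (0.395, 95% interval -0.03 to 0.82, limma adjusted p = 0.267). In SR9011-treated cells TGFb went with a fall: 7.82, 8.72 and 7.51 FPKM with SR9011 and TGFb, against 11.40, 10.39 and 13.05 FPKM with SR9011 (log2 fold change -0.48, adjusted p = 0.00984). That call was lost without SR9011 replicate 3 (adjusted p = 0.0514). The interaction of SR9011 with TGFb was -0.60 (adjusted p = 0.0287). It was lost in 6 of 21 alternative fits, which were the fit with no filter (adjusted p = 0.0509) and those without vehicle replicate 1, TGFb replicate 2, SR9011 replicate 3, or replicate 1 or 3 of SR9011 with TGFb (adjusted p between 0.0566 and 0.0767).

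A further 3 falls of Ciart were called, and each was lost in several fits. SB431542 alone gave 7.49, 7.74 and 5.02 FPKM, below vehicle (-0.47, adjusted p = 0.0283), which was lost without SB431542 replicate 3 (-0.30, adjusted p = 0.193) and without any of the vehicle libraries. SB431542 with TGFb gave 7.16, 8.90 and 8.37 FPKM, below TGFb (-0.34, adjusted p = 0.0486), which was lost in 7 of 15 fits, among them those without TGFb replicate 1 or 2 and without replicate 1 or 3 of its own group. SR9011 with TGFb was below TGFb as well (-0.36, adjusted p = 0.0378), lost in 5 of 15, among them those without TGFb replicate 1 or 2 and without replicate 1 or 3 of its own group. Without TGFb replicate 2, the highest of its group at 11.97 FPKM, these last differences were -0.25 and -0.27 (adjusted p = 0.185 and 0.155). SR9011 alone lay above vehicle in all 3 libraries without passing (0.25, adjusted p = 0.137), and passed when only these groups were fitted (adjusted p = 0.0285). In the order of means SR9011, TGFb and vehicle overlapped in turn at the top, and SB431542 with TGFb, SR9011 with TGFb, SB431542, CLK8 with TGFb and CLK8 did so below them.

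**Figure D3:**
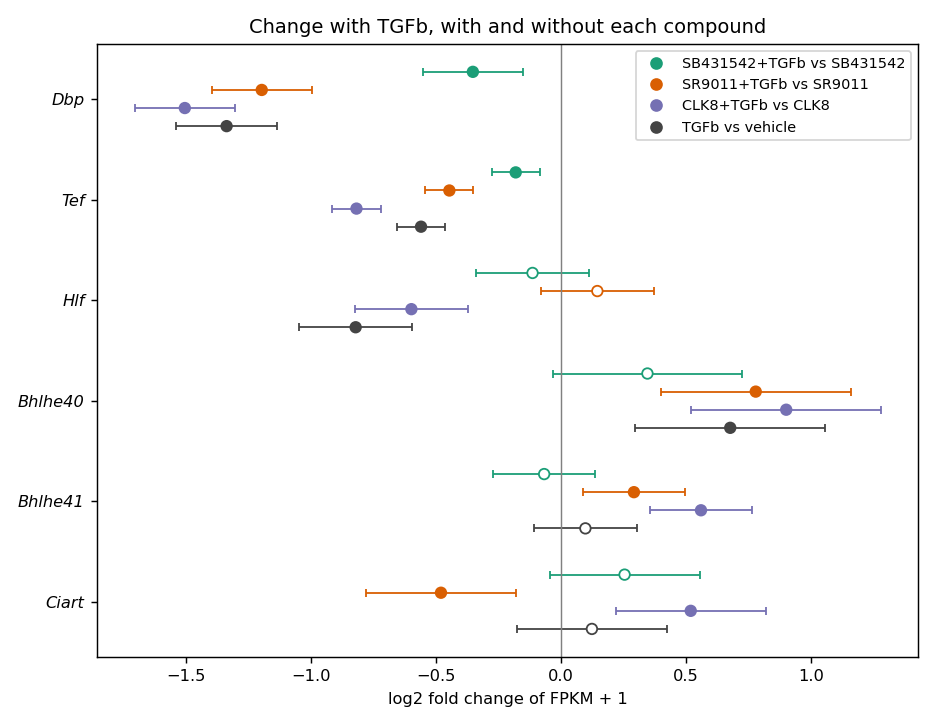
Log2 fold change of FPKM + 1 with TGFb against the same treatment without it, for each member (points) with its 95% interval (lines), in cells with SB431542, SR9011, CLK8 or no compound; filled points passed an adjusted p of 0.05. Dbp and Tef lie below 0 in all 4 settings and nearest 0 with SB431542, and Bhlhe40 lies above 0 in all 4, though its interval with SB431542 includes 0.

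Counting the members against all genes puts these calls in proportion. Against vehicle, TGFb was called higher for 1 of the 6 members and lower for 3, where 20.5% of the tested genes were called higher and 34.4% lower. SB431542 raised 2 members and lowered 1, where 11.9% of genes were higher and 5.05% lower. SR9011 raised 2 and lowered 0, where 40.7% were higher and 28.3% lower. CLK8 raised 2 and lowered 1, where 30.3% were higher and 13.6% lower. The members' median log2 fold change was -0.23 with TGFb, 0.18 with SB431542, 0.33 with SR9011 and 0.05 with CLK8, where the median of all genes was between -0.05 and 0.06.

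Against TGFb alone, SB431542 with TGFb raised 3 members and lowered 1, where 38.3% of genes were higher and 21.4% lower. SR9011 with TGFb raised 4 and lowered 1, where 36.8% were higher and 24% lower. CLK8 with TGFb raised 2 and lowered 2, where 27.7% were higher and 13.3% lower. With backgrounds of this size, a call for SR9011 or TGFb is common among all genes, and 6 genes cannot show that the members were called more often. The comparisons against TGFb share its 3 libraries, and those against vehicle share the vehicle libraries.

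With TGFb against the same compound alone, SB431542 gave 0 members higher and 2 lower, Dbp and Tef, where 2.01% of genes were higher and 2.35% lower. These shares are 493 genes, and 191 genes were called without SB431542 replicate 3, and 244 and 246 without replicates 1 and 2 of SB431542 with TGFb. Both member calls were unstable. The Dbp difference of -0.35 (adjusted p = 0.0373) was lost in 8 of 15 fits and the Tef difference of -0.18 (adjusted p = 0.0236) in 6 of 15, and leaving out any of the 6 libraries lost at least 1 of them. SR9011 gave 2 members higher and 3 lower, where 14.3% of genes were higher and 31% lower. CLK8 gave 3 higher and 3 lower, where 17.3% were higher and 34.6% lower.

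The interaction asks whether the TGFb effect differed with the compound. With SB431542 it was called for 3 members, Dbp (0.99, adjusted p = 6.29e-06), Tef (0.38, adjusted p = 0.000101) and Hlf, all positive, where 21.5% of genes were positive and 12.8% negative. With SR9011 it was called for Hlf, positive, and Ciart, negative, where 16.6% and 15.3% of genes were called in these directions. With CLK8 it was called for Bhlhe41, positive, and Tef, negative, where 4.58% and 3.39% were. The 3 PAR bZIP genes were the members with a called difference in TGFb response in the presence of SB431542. The intervals for Bhlhe40, Bhlhe41 and Ciart were -0.87 to 0.21, -0.45 to 0.12 and -0.29 to 0.56.

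**Figure D4:**
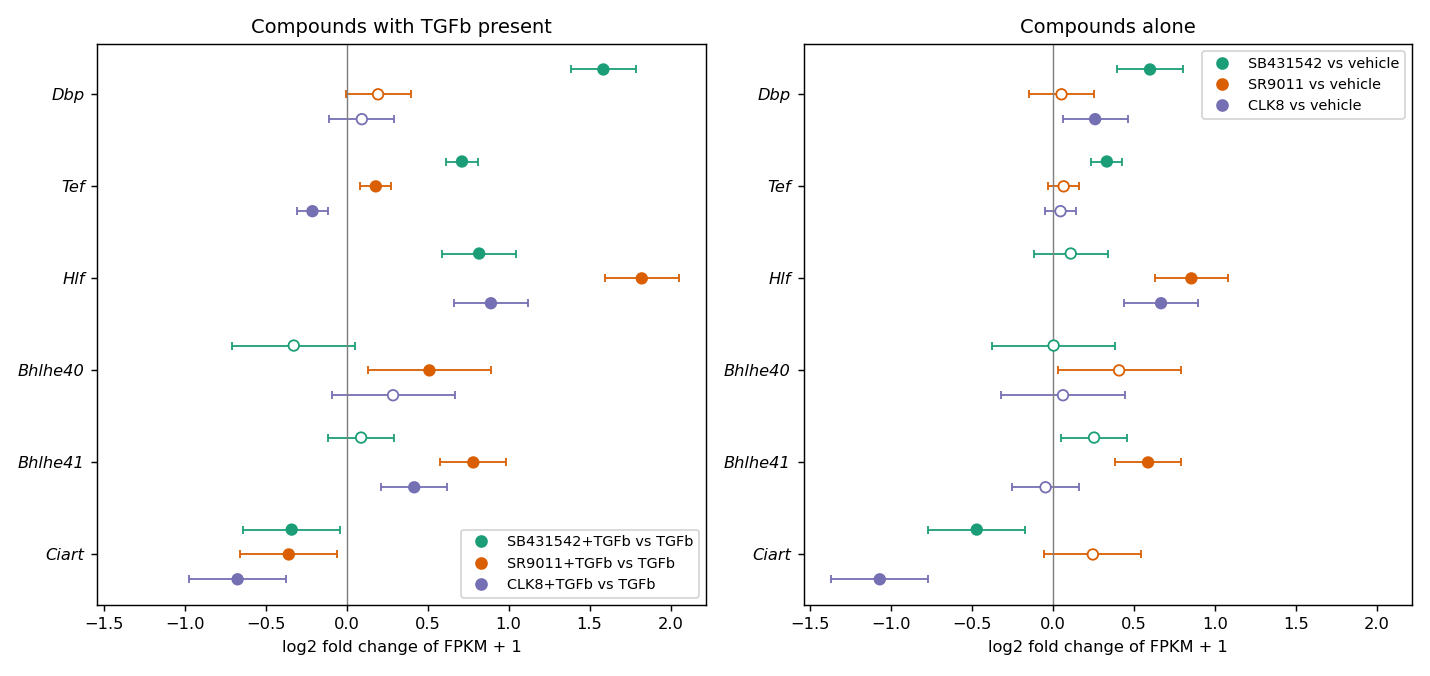
Log2 fold change of FPKM + 1 for each compound, with TGFb against TGFb and without TGFb against vehicle, for each member (points) with its 95% interval (lines); filled points passed an adjusted p of 0.05. Hlf is raised furthest by SR9011 with TGFb (1.82), Dbp by SB431542 with TGFb (1.58), and Ciart is lowered furthest by CLK8 without TGFb (-1.07).

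Other clock genes were followed from a list of 14, of which 12 passed the filter. With TGFb 3 rose and 4 fell, among them Arntl, which encodes BMAL1 (0.74), and the period gene Per3 (-0.62). Of all genes 20.5% were called higher and 34.4% lower. With SB431542 and TGFb against TGFb 6 rose and 3 fell, where 38.3% of all genes were higher and 21.4% lower. Arntl stood at -0.87 and Per3 at 0.83 there. SR9011 against vehicle raised 10 and lowered 1, where 40.7% of genes were higher and 28.3% lower. These rises were led by Nr1d1, which encodes REV-ERBalpha (1.08), Per1 (1.05) and Nr1d2 (0.66). CLK8 raised 5 and lowered 3, where 30.3% of genes were higher and 13.6% lower, with Nr1d1 at 0.75 and Nr1d2 at 0.51. The list's median was -0.04 with TGFb, 0.34 with SR9011 and 0.09 with CLK8, where the median of all genes was -0.05, 0.06 and 0.06. Of 12 kinases, ligases and cofactors that modify clock proteins 11 passed the filter, and 3 rose and 3 fell with TGFb, where 20.5% of all genes were higher and 34.4% lower. With SR9011 7 rose and 1 fell, where 40.7% were higher and 28.3% lower, and the list's median was 0.11 where that of all genes was 0.06.

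For each member the genes with the most similar profile were found as those with the smallest root mean square difference between the 8 centred group means on the log2 scale. This is a description over 8 groups and says nothing of shared function. Nearest to Dbp were Aox1 (0.140), Phf19 (0.145) and Ptpn13 (0.153), where the amplitude of Dbp itself, the root mean square of its own 8 centred means, was 0.735. Nearest to Tef were Mfsd13a (0.0657), Mpst (0.0839) and Mapk8ip1 (0.0868), with an amplitude of 0.361 for Tef. Near to Hlf were Mfsd11 (0.130) and Cmtm3 (0.154), with an amplitude of 0.551.

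Nearest to Bhlhe40 were Tsku (0.110), Pdgfc (0.114) and Zfp827 (0.115), where the amplitude of Bhlhe40 was 0.421. Pdgfc encodes a platelet-derived growth factor and was low, at 0.185 FPKM with vehicle and 0.967 FPKM with TGFb by its log-scale means. The log2(FPKM + 1) scale understates the change of so low a gene. Nearest to Bhlhe41 was Cpt1a (0.0600), which encodes the carnitine palmitoyltransferase of the outer mitochondrial membrane, followed by Prr5l (0.105) and Kdm7a (0.118), with an amplitude of 0.302. Nearest to Ciart were Syngr3 (0.160), Ankrd1 (0.178) and Trdmt1 (0.187), with an amplitude of 0.396. No member was among the 3 nearest genes of another, and the difference to the nearest gene relative to the amplitude was largest for Ciart.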

How the data were processed

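RNA was sequenced from 24 EMS404 libraries (8 groups of 3), taken with either of 2 kits per the labels' protocols. HISAT2 2.0.4, Bowtie2 2.2.5, RSEM, DESeq2 and mm10 are named in the submitters' processing notes. The authors deposited FPKM with 2 decimals for 16620 lines, and 16 lines with duplicated identifiers were left out. Depth is unknown, so no counting error can be given, and normalized values allow no count test. Symbols and positions came from GENCODE M21 on GRCm38, which has the coordinates of mm10.

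The tested genes reached 1 FPKM in 3 or more libraries, and limma 3.58.1 was run on their log2(FPKM + 1) values (R 4.3.3; trend and robust variance moderation, 1 model of all groups, 16 residual degrees of freedom, 2-sided), in 13 comparisons. An interaction is the TGFb effect with a compound minus that without. The 95% intervals use limma's estimates and standard errors with the median moderated degrees of freedom (22.6) for every gene, and are not adjusted. A gene with fewer degrees of freedom would have a wider interval than the one given. The fit was tested on simulated data. Tables and figures used Python 3.11.15, pandas 2.3.3, numpy 2.4.6 and matplotlib 3.10.9.

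The members and lists were chosen with earlier results of these data known. Named genes were the 6 members, the 3 genes most like each, and at most the 3 largest called changes of a list; a few genes that this rule names are not reported here. P-values weigh a difference against the spread between these libraries within groups, taken from the model of all groups. Alternatives were the pseudocount, the filter, TPM, quantile normalization, plain variance moderation, the compared groups alone, a replicate block and leaving out each library.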

Additional observations from a re-analysis of the deposited data

Results flagged for a closer look

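The TGFb response differed between cells with and without a compound, by the limma interaction, in 7 results. With SB431542 the interactions were 0.99 for Dbp, 0.38 for Tef and 0.71 for Hlf on the log2 scale (adjusted p = 6.29e-06, 0.000101 and 0.0011). With SR9011 they were 0.97 for Hlf (adjusted p = 5.68e-05) and -0.60 for Ciart (adjusted p = 0.0287). With CLK8 they were -0.26 for Tef (adjusted p = 0.0151) and 0.46 for Bhlhe41 (adjusted p = 0.0434). The 3 SB431542 results and that of Hlf with SR9011 passed the threshold in every alternative fit, and the other 3 did not. Tests for a sample far from its group were not made, since groups of 3 are too small for them.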

How the results depend on the processing

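Of 78 member results 45 were called. All of the alternatives kept 32 of these, and 13 lost the call in at least 1. Of the 33 not called, 7 passed in at least 1 alternative. No called result changed sign. Counts of called members that moved were, with SB431542 and TGFb against SB431542 (2 called), 1 with a pseudocount of 0.1, 1 with no filter, 0 with TPM and 1 with the compared groups alone. For the CLK8 interaction (2 called) the count was 1 with a pseudocount of 0.1, no filter, FPKM of at least 5, TPM, quantile normalization or the compared groups alone. It was 1 for the SR9011 interaction (2 called) with no filter, 3 for SR9011 with TGFb against TGFb (5 called) with TPM, and 4 for SR9011 against vehicle (2 called) with the compared groups alone. Leaving out each library gave 0 to 1 called members for SB431542 with TGFb against SB431542, 1 to 2 for the SR9011 and for the CLK8 interaction, and 3 to 5 for SR9011 with TGFb against TGFb. All genes called for SB431542 with TGFb against SB431542 ranged from 191 to 506, against 493 with all libraries. The cause was not tested. Under FPKM of at least 5, Bhlhe41 was not tested.

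Residuals of libraries with the same replicate number correlated above 0.1 for all 3 numbers in 2 of 28 pairs of groups, so the numbers were not taken as pairs. That check was made over all tested genes and not for single members. With the replicate number as a block, Bhlhe40 passed for SR9011 against vehicle (adjusted p = 0.00906) and for SB431542 with TGFb against TGFb (adjusted p = 0.0365), and no other member call changed. With the block 547 genes were called for SB431542 with TGFb against SB431542, and no count of called genes moved by 1.5 times or more. Unknown depth limits Bhlhe41 and Hlf most, the members with libraries under 1 FPKM.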

Other observations

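C/EBP-related factors, which share the bZIP fold with the PAR family, were followed from a list of 8, of which 7 were tested. With SR9011 against vehicle 6 rose and 1 fell, with a median of 0.70, where 40.7% of all genes were called higher and 28.3% lower. Ddit3, which encodes the stress-induced factor CHOP, averaged 242 FPKM with SR9011 and 36.8 FPKM with vehicle (log2 fold change 2.67, adjusted p = 9.82e-16). Its level was 114 FPKM with SR9011 and TGFb and 37.4 FPKM with TGFb (1.58, adjusted p = 1.2e-11). With TGFb against vehicle 3 of the 7 rose and 2 fell, with a median of 0.14, where 20.5% of all genes were called higher and 34.4% lower. Cebpd was the 1 that fell with SR9011 (-1.18), and it fell with TGFb as well (-0.98). It averaged 15.7 FPKM with SB431542 and TGFb and 7.37 FPKM with TGFb (adjusted p = 8.56e-10).

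Of 9 HES and HEY genes, relatives of the DEC factors, 2 were tested, and with TGFb 1 rose and 1 fell. Among all genes 20.5% were called higher and 34.4% lower with TGFb. Hes6 fell (-0.22, adjusted p = 0.00624). Hes1 rose with TGFb, with 19.2 FPKM against 10.8 FPKM with vehicle (log2 fold change 0.77), as Bhlhe40 did. With SR9011 against vehicle Hes1 fell (-0.82, adjusted p = 1.56e-09), where Bhlhe40 gave 0.41 (adjusted p = 0.055).

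Replicate 2 was the highest of its group in 7 of 8 groups for Bhlhe40 and for Ciart, in 6 for Bhlhe41, in 5 for Dbp, in 2 for Tef and in 1 for Hlf. The labels do not say what the replicate numbers stand for.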
